A study of Mus musculus with 38 samples.

Results

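The comparison of HiT with Fed set mice that were fasted in the warm against mice that kept their food in the cool, 2 groups that shared neither the diet nor the temperature and of which neither went through torpor. Torpor is the regulated, reversible fall of metabolic rate and body temperature that a fasted mouse enters in a cool chamber. The members were the libraries titled HiT 1 to 4 and Fed 1 to 4, 8 of the 38 libraries of the series, and all promoters were kept. Start sites were counted by cap analysis of gene expression (nAnT-iCAGE), which reads the first bases of capped RNA without amplification, so that each tag marks the strand and base at which transcription began. Tags were gathered into 10819 promoter clusters, of which 10776 held a tag in the libraries fitted here.

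Both groups were male C57BL/6J mice, 8 weeks old, and the soleus, a slow postural muscle of the hind limb, was taken at ZT22, near the end of the dark phase, on day 2. HiT mice lost their food at the start of that day and were kept at an ambient temperature of 32 °C, at which none entered torpor. Fed mice kept their food at the low ambient temperature of the torpor experiments. Each library came from 1 mouse, so that n counts mice. The spread behind the p-values of the promoter fits was estimated within groups over all 28 libraries fitted, not over HiT and Fed alone. Food and temperature both differed between HiT and Fed, and their effects cannot be told apart within this comparison. The Dep mice, fasted at the low temperature and kept from completing torpor by touch, had the fasting of HiT and the chamber of Fed, and their values (n = 4) are given beside the members where a result turns on them. Pre mice (n = 4) were sampled with food 1 day earlier at the low temperature.

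The labels and the methods differed on the diet: the condition label of the Fed samples reads as starvation, and the series text gives food to HiT. The groups here follow the titles and the methods. Pdk4, whose product shuts pyruvate dehydrogenase and spares glucose during fasting, spanned 297 to 570 normalised CPM in the fed Pre mice and 4400 to 5502 in the fasted Dep mice. In Fed 1 to 4 it stood at 260, 582, 654 and 274, and in HiT 1 to 4 at 5104, 3960, 4544 and 4594. Fasn, the fatty acid synthase of fed tissue, spanned 43.1 to 124 in Pre and 5.46 to 10.5 in Dep, and stood at 62.4, 117, 30.3 and 138 in Fed and 3.94, 5.58, 3.9 and 4.33 in HiT. For both genes the Fed libraries lay with the fed mice and the HiT libraries with the fasted mice. Normalised CPM are tag counts relative to the size of the library, scaled by the trimmed mean of M values (TMM).

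In the fed state, insulin drives glucose into muscle, where it is burnt or stored as glycogen, and some cells of the tissue make fatty acids. In fasting, fatty acids reach the muscle instead, where they bind PPAR receptors that switch on genes of fat use, and low insulin with high glucocorticoid frees FOXO factors that switch on genes of protein breakdown and autophagy. At low ambient temperature a mouse makes extra heat, in part by shivering and by calcium pumping in muscle, a demand that falls away near thermoneutrality.

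The 8 libraries held 18257657 (Fed 1) to 39176649 (Fed 4) tags in clusters. Their TMM factors ran from 0.679 to 1.21, and the share of tags in clusters without an annotated gene from 17.5% to 51.6%; HiT 4 had the lowest factor and the highest share. Skeletal muscle markers such as Acta1, Ckm and Tnnt1 summed to 27132 to 31077 normalised CPM in HiT and 29228 to 34342 in Fed. The libraries Fed 2 and Fed 3 stood apart: 30 measured genes of hepatocytes summed to 818 and 597 normalised CPM there, against 30.9 to 203 in the other 26 libraries fitted, with albumin at 218 and 129. Of these 30, 25 were called lower in HiT (median log2 fold change -4.65) and 0 were called once both libraries were left out (edgeR quasi-likelihood test, FDR under 0.05), so liver genes are not described further. Red blood cell markers also fell in 5 of 7 promoters, and in 0 without these libraries. Counts over genes are therefore also given without Fed 2 and Fed 3 for part of the lists, and counts not given could move too.

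Fasting in the warm against feeding in the cool changed a large share of the promoters of the soleus. In HiT, 2507 of 10776 promoters (23.3%) were higher than in Fed and 2150 (20%) lower at an FDR under 0.05, from 2229 and 1892 genes. The median absolute change of those called was 0.53 on the log2 scale for promoters that rose and 0.57 for those that fell. Of the 4657 called, 509 rose and 377 fell by more than 2-fold, and in 3524 (32.7% of those tested) the 4 HiT libraries did not overlap the 4 Fed libraries. With only the HiT and Fed libraries in the fit, 1985 were higher and 1929 lower. List counts moved in that fit too, and are given below for part of the lists. In the full fit, the median over all promoters was 0.01. With library totals in place of TMM that median moved to -0.21 and the split to 701 higher and 2260 lower, or 23.7% of calls higher against 53.8%. With Fed 2 and Fed 3 left out, 2010 were higher and 1726 lower, and 1947 and 1646 of these had the same call in the full set. For the lists described below, library totals without TMM left 5 FOXO and atrophy, 5 immediate early and 11 matrix promoters called higher. They left 4 in each of the ATF4 and antioxidant lists. Library totals over only the clusters with an annotated gene, a setting added later, gave 1931 higher and 2211 lower. In that setting 10 FOXO and atrophy, 10 immediate early, 16 matrix, 6 ATF4 and 11 antioxidant promoters were called higher. So were 66 cytosolic ribosomal, 15 heat shock and 13 autophagy promoters. Without Fed 2 and Fed 3, 1 higher and 4 lower were called among the clock genes, and likewise among the cold-inducible and splicing genes. The mTOR list then held 2 higher and 5 lower, and the TCA cycle 1 lower. Fatty acid oxidation held 7 higher and 0 lower, matrix 22 and 0, heat shock 13 and 1 and antioxidant genes 10 and 1. The respiratory chain held 1 higher and 6 lower, translation factors 13 and 1 and glucocorticoid targets 7 and 2.

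**Figure D1:**
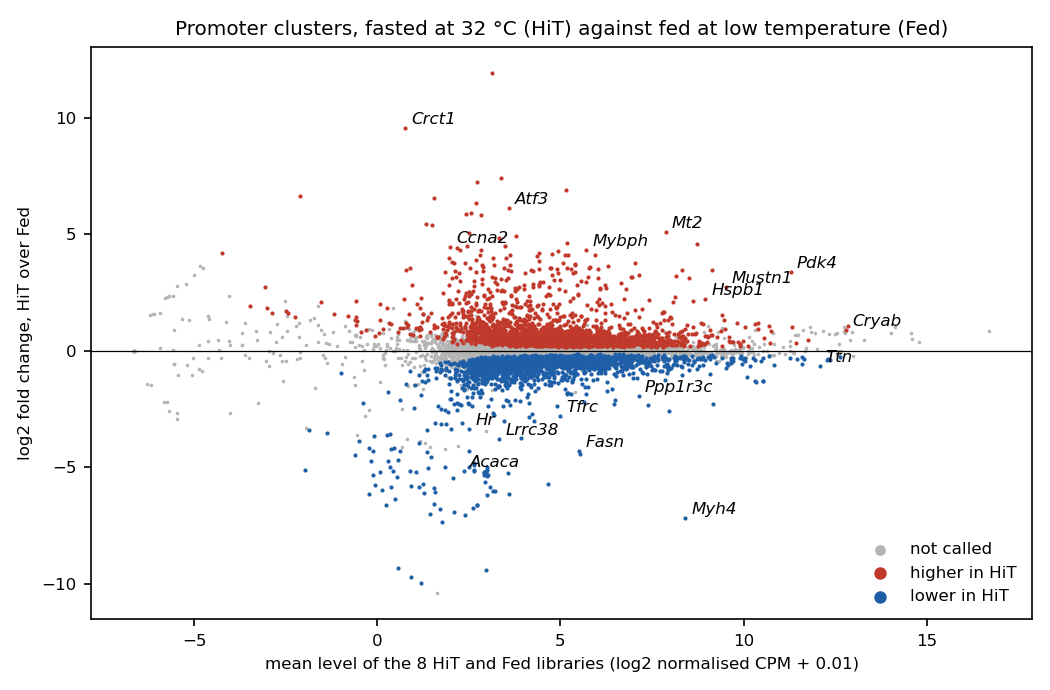
Each point is a promoter cluster, with the mean level of the 8 libraries (log2 of normalised CPM plus 0.01) on the horizontal axis and the log2 fold change of HiT over Fed on the vertical axis; red points were higher and blue points lower in HiT at an FDR under 0.05, grey points were not called. Pdk4 and Cryab lie among the high promoters that rose, Myh4 far below the others of its level, and Fasn below 0 at -4.29.

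By size, the 10 annotated genes that rose furthest without overlap were Crct1, Atf3, the pseudogene Gm8818, Mt2, the histone gene Hist1h3g, Ccna2, Birc5, Cdc20, Mybph and the histone gene Hist1h3c, with fold changes from 4.27 (Hist1h3c) to 6.14 (Atf3) on the log2 scale where Fed held tags. Crct1 held 0 tags in the 4 Fed libraries, and was at least 149-fold higher in HiT against a floor of 3 tags over the group. The 10 that fell furthest were Myh4, its antisense RNA Myhas, an upstream promoter of Acaca, Fasn, Lrrc38, Pnpla3, the downstream promoter of Pcx, Hr, 2310065F04Rik and the downstream promoter of Pgm1, from -3.08 (Pgm1) to -7.18 (Myh4). Among the 5 called genes of highest level in each direction, Cryab rose from 5022 ± 688 to 9259 ± 1046 normalised CPM (SD, n = 4 each) and Pdk4 from 442 ± 205 to 4551 ± 468 (SD, n = 4 each), while Ttn, the giant spring of the sarcomere, fell from 5292 ± 965 to 3336 ± 446 (SD, n = 4 each). Slc25a4, the ADP/ATP carrier of muscle mitochondria, changed by -0.41 (FDR = 0.00852, and 0.0854 with the 8 libraries alone). The changes of Fhl1, Col1a1 and Coq8a (higher) and of Tcap, Tpm1 and Tpm3 (lower) lay between -0.38 and 0.83, and each call was lost with some single libraries left out, with 0.37 for Fhl1 without Fed 3, 0.61 for Col1a1 without Fed 1, 0.29 for Coq8a without HiT 3, -0.22 for Tcap without HiT 2, -0.3 for Tpm1 without Fed 1 and -0.29 for Tpm3 without HiT 2.

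**Figure D2:**
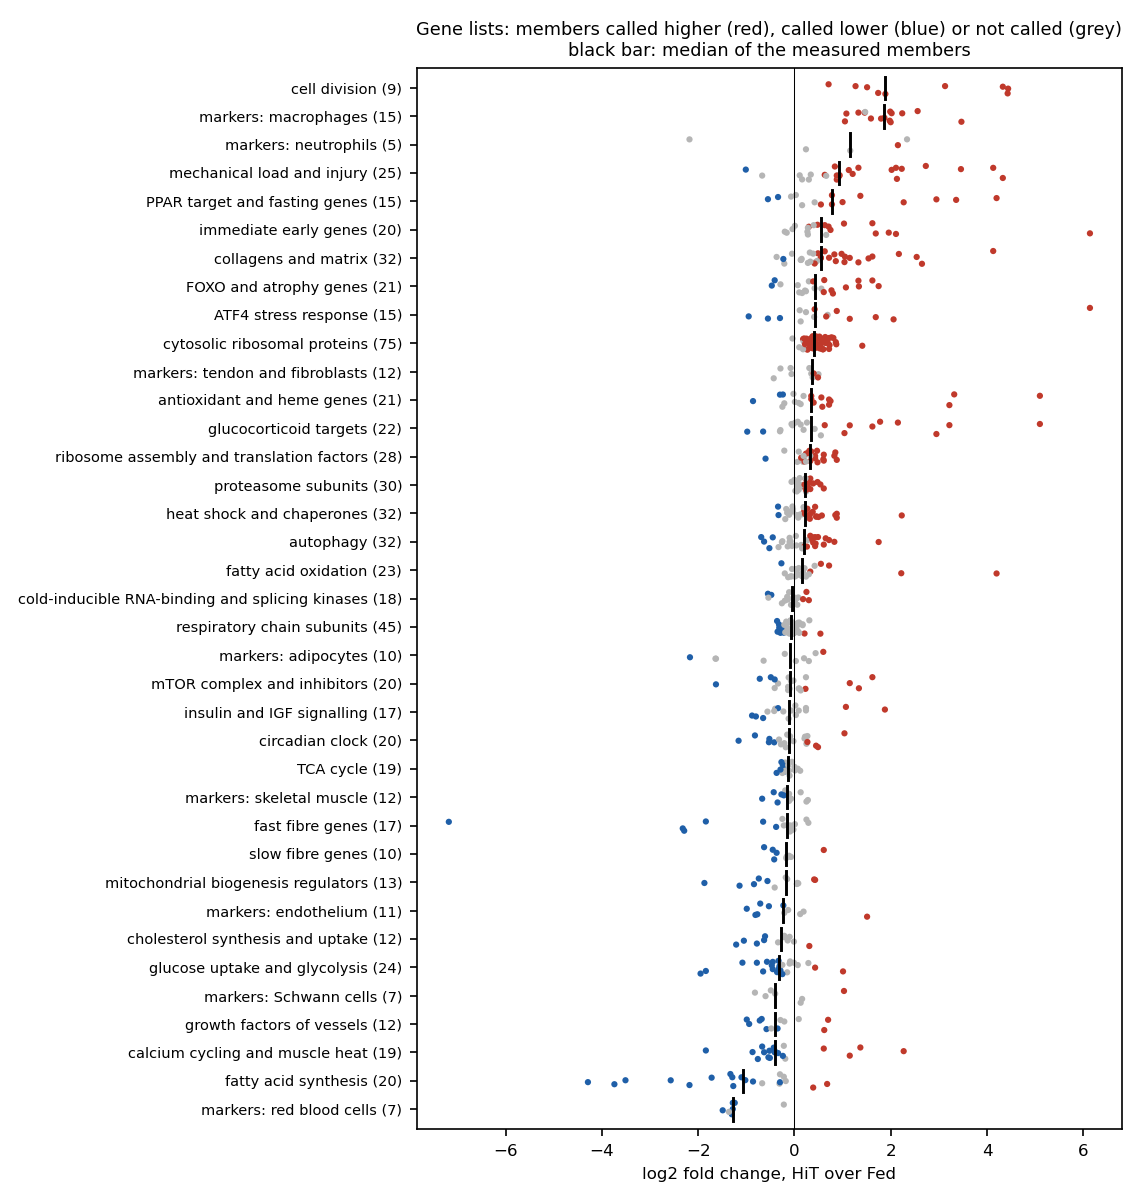
Each row is a gene list with its number of measured members, each point 1 promoter per gene at its log2 fold change of HiT over Fed, red for called higher, blue for called lower, grey for not called, and the black bar the median. Macrophage markers, cell division and load genes lie to the right with medians of 1.87, 1.89 and 0.93, and fatty acid synthesis to the left with -1.06.

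The start regions of 6 promoters are printed because results on fuel, load and fibre genes below refer to them. They are Pdk4 and Ucp3 (fat use, higher in HiT), the upstream promoter of Ppargc1a and Mybph (higher), and Pnpla3 and Myh4 (lower). Those of Fasn, Mt2 and the upstream promoters of Acaca and Atf3, which changed further than some of these, are not used here because no RefSeq window covered their peaks. Each runs from 250 bases before to 30 after the RefSeq transcript start, 5′ to 3′ on the gene's strand, on the mouse assembly GRCm38.p6. Capitals mark 4 motifs, searched on both strands. TATAAA is the TATA box, and the CCAAT box is spelt as its name. TGACG is the core of the cyclic AMP response element. The short element bound by nuclear receptors such as ROR and PPAR is AGGTCA.
Pdk4 (chr6:5496249-5496528, minus strand): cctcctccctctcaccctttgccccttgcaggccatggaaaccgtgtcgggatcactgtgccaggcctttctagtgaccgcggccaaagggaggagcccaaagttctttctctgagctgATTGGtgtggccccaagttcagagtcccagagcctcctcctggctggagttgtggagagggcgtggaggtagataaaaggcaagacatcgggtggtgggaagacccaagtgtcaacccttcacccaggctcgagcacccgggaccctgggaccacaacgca
Ucp3 (chr7:100472741-100473020, plus strand): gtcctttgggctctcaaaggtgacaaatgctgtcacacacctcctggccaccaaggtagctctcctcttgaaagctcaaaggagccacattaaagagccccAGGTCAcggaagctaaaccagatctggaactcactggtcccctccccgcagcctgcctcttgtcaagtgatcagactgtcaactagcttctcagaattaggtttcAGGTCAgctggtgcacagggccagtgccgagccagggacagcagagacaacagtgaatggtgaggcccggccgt
Ppargc1a, upstream promoter (chr5:51567696-51567975, minus strand): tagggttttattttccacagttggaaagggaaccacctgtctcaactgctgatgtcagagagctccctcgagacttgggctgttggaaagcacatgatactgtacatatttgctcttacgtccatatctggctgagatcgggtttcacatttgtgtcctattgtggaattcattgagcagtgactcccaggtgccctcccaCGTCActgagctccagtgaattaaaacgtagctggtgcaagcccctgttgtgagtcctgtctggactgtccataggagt
Mybph (chr1:134193198-134193477, plus strand): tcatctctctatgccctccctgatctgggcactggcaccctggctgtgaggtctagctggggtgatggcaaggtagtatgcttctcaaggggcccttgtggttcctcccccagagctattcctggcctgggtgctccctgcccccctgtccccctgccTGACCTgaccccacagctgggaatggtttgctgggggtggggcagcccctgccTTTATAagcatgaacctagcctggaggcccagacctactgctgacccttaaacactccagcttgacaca
Pnpla3 (chr15:84167566-84167845, plus strand): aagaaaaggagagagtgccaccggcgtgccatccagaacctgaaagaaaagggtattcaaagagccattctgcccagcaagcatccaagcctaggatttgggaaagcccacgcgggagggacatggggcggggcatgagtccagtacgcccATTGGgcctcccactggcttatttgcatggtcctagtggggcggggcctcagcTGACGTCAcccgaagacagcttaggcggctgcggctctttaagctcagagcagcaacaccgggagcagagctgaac
Myh4 (chr11:67237562-67237841, plus strand): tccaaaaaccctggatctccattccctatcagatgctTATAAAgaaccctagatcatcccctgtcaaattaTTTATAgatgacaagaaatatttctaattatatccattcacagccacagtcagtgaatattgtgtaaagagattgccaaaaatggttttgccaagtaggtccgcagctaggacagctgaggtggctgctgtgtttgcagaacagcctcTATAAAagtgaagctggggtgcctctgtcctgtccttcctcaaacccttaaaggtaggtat

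Positions are counted from the RefSeq start, and the peak of the measured tags lay elsewhere in some genes. It lay at -33 in Pdk4, -24 in Ucp3, -11 in Mybph and 18 in Pnpla3. The Ucp3 window held AGGTCA at -149 and -44 and the Ppargc1a window TGACG at -49. The Mybph and Myh4 windows held TATAAA at -39 and -31. The Pdk4 window held CCAAT at -131, the Pnpla3 window TGACG at -46 and -43 and CCAAT at -99, and the Mybph window AGGTCA at -92. The TGACG matches of Pnpla3 lie on opposite strands of the same TGACGTCA. The Myh4 window held TATAAA at -213 and -179 as well. Over the 4756 promoters whose peak could be matched to a RefSeq start region (250 bases before to 50 after the start), TATAAA was present in 7.72%, against 17.8% of the 135 that rose and 16.3% of the 147 that fell by more than 2-fold. AGGTCA was present in 11.6% of all, 14.1% of those that rose and 21.1% of those that fell, and TGACG in 35.5%, 21.5% and 21.1%. CCAAT was present in 38.3%, 40.7% and 42.9%. These shares are descriptions of letters, and none was tested.

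Most genes that fatty acids switch on through PPAR receptors were higher in the fasted HiT mice. Of the PPAR target and fasting genes, 9 of 15 measured promoters were called higher and 2 lower, with a median log2 fold change of 0.78, beside 23.3%, 20% and 0.01 over all promoters, and 1 was lower without Fed 1. Pdk4 rose 10.3-fold (log2 fold change 3.36 ± 0.31 (SE), FDR = 1.21e-08), with no overlap. Acot1, which cleaves acyl-CoA in the cytosol, stood at 57.4, 32.3, 32.2 and 41.3 normalised CPM in HiT and 1.65, 3.06, 2.94 and 1.24 in Fed (log2 fold change 4.2 ± 0.34 (SE), FDR = 1.63e-09), and its mitochondrial relative Acot2 changed by 2.22 (FDR = 3.96e-09). These 2 genes are close copies, so tags may be shared between them. Angptl4, a secreted inhibitor of lipoprotein lipase, stood at 110, 74, 66.6 and 118 in HiT and 3.99, 21.6, 9.29 and 12.1 in Fed (log2 fold change 2.95 ± 0.47 (SE), FDR = 2.5e-05).

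Ucp3, an inner membrane carrier of muscle mitochondria, stood at 65.5, 59.9, 55 and 88.1 normalised CPM in HiT and 12, 17.4, 18.3 and 7.92 in Fed (log2 fold change 2.27 ± 0.28 (SE), FDR = 8.81e-07). Every HiT library was above every Fed library. The lipid droplet proteins Plin5 and Plin2, the lipase Pnpla2 and the carnitine carrier Slc25a20 rose by 1.0, 0.78, 0.78 and 0.55 on the log2 scale (FDR at most 0.0019). Vldlr, a receptor for lipoproteins, fell by 0.55 (FDR = 2.72e-05). The enzymes that burn the fat were called higher at about the share over all promoters, and lower less often. Of the fatty acid oxidation list, 5 of 23 measured promoters were called higher (21.7%) and 1 lower (4.35%), beside 23.3% and 20% over all promoters. The median log2 fold change was 0.16, and -0.08 without TMM. The number called higher was 11 without Fed 3 and 10 without HiT 2, and none was lower without Fed 3, HiT 2 or HiT 3. Its 2 largest changes were Acot1 and Acot2, and Cpt2, the inner membrane carnitine transferase, rose by 0.33 (FDR = 0.00426). Pnpla2, Slc25a20 and Cpt2 were not called without TMM (FDR = 0.0952, 0.21 and 0.641).

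**Figure D3:**
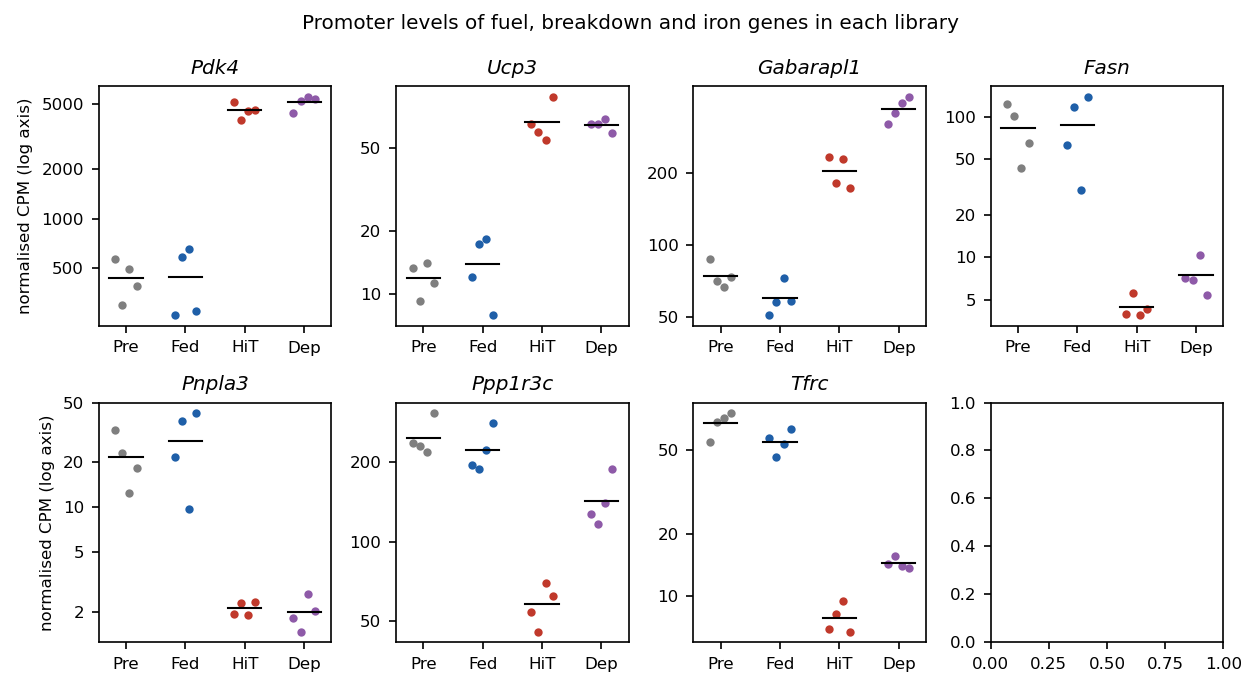
Normalised CPM of genes of fuel use, autophagy, glycogen and iron uptake (log axes) in each library of Pre, Fed, HiT and Dep. The mean of each group is a line. Pdk4, Ucp3 and Gabarapl1 are higher in HiT than in Fed, and Fasn, Pnpla3, Ppp1r3c and Tfrc lower, with no overlap.

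Fat-making genes fell. Of the fatty acid synthesis list, 2 of 20 measured promoters were called higher and 13 lower, with a median log2 fold change of -1.06. Fasn fell 19.6-fold (log2 fold change -4.29 ± 0.6 (SE), FDR = 4.27e-06), and its lowest Fed library, at 30.3, was above its highest HiT library, at 5.58. Pnpla3, a lipid droplet protein of fed tissue, stood at 1.93, 2.27, 1.9 and 2.31 in HiT and 21.8, 37.9, 9.78 and 42.7 in Fed (log2 fold change -3.74 ± 0.48 (SE), FDR = 1.42e-06), and another gene starts within 500 bp of its cluster. Its start region is printed above.

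Scd1, a fatty acid desaturase, stood at 44.9, 49.7, 68.4 and 128 normalised CPM in HiT and 189, 672, 169 and 690 in Fed (log2 fold change -2.57 ± 0.84 (SE), FDR = 0.0158). The 2 highest Fed libraries, Fed 2 and Fed 4, set the width of its spread. Angptl8, a secreted factor induced by feeding, stayed near or under 1 CPM and changed by -3.51 (FDR = 0.00109). Thrsp, a lipogenic nuclear protein, stood at 15.3, 13.9, 25.5 and 17.9 in HiT and 52.9, 82.7, 46.6 and 145 in Fed (log2 fold change -2.18 ± 0.37 (SE), FDR = 5.34e-05). The citrate carrier Slc25a1 and the citrate lyase Acly, which feed acetyl groups into the pathway, fell by 1.72 and 1.29 (FDR = 9.50e-04 and 1.90e-04). Gpam, which starts triglyceride synthesis, was called in the other direction (0.68, FDR = 0.00308), with overlapping libraries and no call without TMM (FDR = 0.15). The count was 1 higher and 13 lower with Fed 2 and Fed 3 left out. In Fed 1 and Fed 4, where the hepatocyte genes were low, Fasn stood at 62.4 and 138. Adipocyte markers, the other cells of muscle that make fat, were called in 1 promoter each way of 10, and their summed levels overlapped (2890 to 4184 in HiT and 2465 to 3667 in Fed). In tissue from whole muscle, fewer cells of a type and less RNA per cell cannot be told apart.

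Cholesterol genes showed fewer calls. Of the list, 1 of 12 measured promoters were called higher (8.33%) and 5 lower (41.7%), beside 23.3% and 20% over all promoters. The median log2 fold change was -0.28, and 10 of its 22 genes had no cluster. The 1 called higher was not called without Fed 2, Fed 3, Fed 4, HiT 1, HiT 3 or HiT 4. Insig1, the membrane anchor that holds SREBP back, fell by 1.05 (FDR = 1.95e-05). Mvd of the mevalonate pathway fell by 0.78 (FDR = 0.00128).

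Genes of glucose use were lower. Of the glucose uptake and glycolysis list, 2 of 24 measured promoters were called higher and 15 lower, with a median log2 fold change of -0.31. Ppp1r3c, which targets protein phosphatase 1 to glycogen and favours its synthesis, stood at 54.1, 45.5, 69.6 and 62.1 normalised CPM in HiT and 196, 189, 222 and 284 in Fed (log2 fold change -1.95 ± 0.2 (SE), FDR = 6.67e-08). Pfkfb3, which makes the activator of phosphofructokinase, stood at 8.05, 7.07, 5.72 and 9.66 in HiT and 40.7, 27.7, 17.6 and 23.2 in Fed (log2 fold change -1.84 ± 0.32 (SE), FDR = 6.28e-05). No HiT library of either gene reached a Fed library. Phkg1, a subunit of phosphorylase kinase, Pkm, the last step of glycolysis, and Hk2, the hexokinase of muscle, changed by -1.08, -0.78 and -0.47 (FDR = 1.79e-04, 1.32e-04 and 0.00335). Slc2a1, the glucose carrier of basal uptake, went the other way, with 28.5, 23.4, 21.4 and 21.6 in HiT and 9.37, 14.2, 12.8 and 10.6 in Fed (log2 fold change 1.01 ± 0.22 (SE), FDR = 7.33e-04). The insulin-driven carrier Slc2a4 changed by -0.29 (FDR = 0.00766, and 0.0564 with the 8 libraries alone), with overlapping libraries. The 2 promoters of this list called higher were 1 without Fed 1, HiT 1 or HiT 4. The 15 called lower were 11 without Fed 1 and 12 with only the HiT and Fed libraries in the fit. With a replicate block on those 8 libraries, 10 were lower.

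Mitochondrial enzymes held few promoters called higher, and several of their regulators fell. Over all promoters, 23.3% were called higher and 20% lower. Of the respiratory chain subunits, 2 of 45 measured promoters were called higher and 8 lower, with a median log2 fold change of -0.08, and of the TCA cycle, 0 of 19 measured promoters were called higher and 6 lower, with a median log2 fold change of -0.14. The TCA promoters called lower numbered 0 without Fed 3, 1 without HiT 2 and 3 without Fed 1, Fed 4, HiT 1, HiT 3 or HiT 4, and those of the respiratory chain 15 without Fed 2, while its 2 called higher were 4 without Fed 3 and 1 without Fed 1, Fed 2, Fed 4, HiT 2, HiT 3 or HiT 4. With only the HiT and Fed libraries in the fit, 0 TCA promoters were lower, and the respiratory chain held 1 higher and 3 lower. Of the biogenesis regulators, 2 of 13 measured promoters were called higher and 5 lower, with a median log2 fold change of -0.18. The 2 regulators called higher were 1 without Fed 2, Fed 3, Fed 4, HiT 1 or HiT 2. Prkag3, the AMPK subunit of fast glycolytic fibres, stood at 2.04, 2.03, 2.08 and 1.46 in HiT and 14.6, 5.75, 3.5 and 4.35 in Fed (log2 fold change -1.87 ± 0.4 (SE), FDR = 6.31e-04), with HiT 4 below the other HiT libraries. Prkaa2, the catalytic AMPK subunit of muscle, and Perm1, a muscle partner of PGC-1, changed by -0.84 and -0.56 (FDR = 7.07e-05 and 0.0014). Tfam, which packs mitochondrial DNA, rose by 0.43 (FDR = 9.42e-04, and 0.42 without TMM). The main promoter of Ppargc1a, the coactivator PGC-1α, was lower (log2 fold change -1.14 ± 0.16 (SE), FDR = 6.9e-06) while its upstream promoter was higher.

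Genes of protein breakdown and autophagy were called higher more often than lower. Of the FOXO and atrophy genes, 10 of 21 measured promoters were called higher and 2 lower, with a median log2 fold change of 0.42. Gabarapl1, a protein of the growing autophagosome, stood at 232, 181, 228 and 172 normalised CPM in HiT and 51.2, 58.2, 72.9 and 58.3 in Fed (log2 fold change 1.75 ± 0.22 (SE), FDR = 1.32e-06). Sesn1, an inhibitor of mTORC1, stood at 56.6, 39.1, 40.6 and 46.2 in HiT and 16.1, 16.2, 13.3 and 13.9 in Fed (log2 fold change 1.62 ± 0.26 (SE), FDR = 2.67e-05). Both genes were separated without overlap. Eif4ebp1, the brake on cap-dependent translation, and the cell cycle inhibitor Cdkn1a rose by 1.34 and 1.33 (FDR = 3.82e-07 and 4.34e-04). Of the ubiquitin ligases of atrophy, Fbxo32 stood at 227, 178, 181 and 191 in HiT and 128, 117, 159 and 102 in Fed (log2 fold change 0.62 ± 0.19 (SE), FDR = 0.00987). Foxo4 fell by 0.47 (FDR = 9.50e-04). The call of Fbxo32 was lost without TMM (FDR = 0.224).

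Of the autophagy list, 15 of 32 measured promoters were called higher and 4 lower, with a median log2 fold change of 0.19, which was -0.04 without TMM, where 2 higher and 4 lower were called. The cargo receptors Nbr1 and Sqstm1 rose by 0.83 and 0.72 (FDR = 6.65e-05 and 1.63e-04). Of the proteasome subunits, 14 of 30 measured promoters were called higher and 0 lower, with a median log2 fold change of 0.21. Without TMM the median was -0.01, with 0 higher and 0 lower. Library totals over only the clusters with a gene gave 12 higher and a median of 0.17. With TMM but without Fed 2, 9 were higher, and 7 with only the HiT and Fed libraries in the fit. Psmd11 and Psmb1 were its largest changes, at 0.61 and 0.54 (FDR = 7.63e-05 and 1.21e-04). Sqstm1, Psmd11 and Psmb1 were not called without TMM (FDR = 0.0583, 0.103 and 0.214).

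The hormone lists held strong single changes. Of the glucocorticoid targets, 9 of 22 measured promoters were called higher and 2 lower, with a median log2 fold change of 0.34. Mt2 and Mt1, the metallothioneins that bind zinc, are switched on by glucocorticoid and by zinc. Mt2 stood at 502, 541, 391 and 390 normalised CPM in HiT and 7.46, 14.1, 15.2 and 15.8 in Fed (log2 fold change 5.1 ± 0.63 (SE), FDR = 9.71e-07), and Mt1 changed by 3.22 (FDR = 1.19e-06). Cebpd, a transcription factor of the acute phase, stood at 109, 70.8, 98 and 78 in HiT and 26.8, 31.2, 19.8 and 25.7 in Fed (log2 fold change 1.78 ± 0.32 (SE), FDR = 7.6e-05). Every HiT library of these genes was above every Fed library. Sgk1, a kinase of salt and muscle balance, went down (-0.98, FDR = 3.05e-05).

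Of the insulin and IGF list, 2 of 17 measured promoters were called higher (11.8%) and 4 lower (23.5%), beside 23.3% and 20% over all promoters. The median log2 fold change was -0.12. Socs3, which damps cytokine and insulin signals, and Irs2, an insulin receptor substrate that FOXO switches on, rose by 1.88 and 1.07 (FDR = 3.54e-06 and 0.00209). Igfbp5 and Grb14, binders of IGF and of the insulin receptor, fell by 0.88 and 0.8 (FDR = 0.00109 and 9.42e-04). Of the mTOR list, 4 of 20 measured promoters were called higher and 4 lower (20% each), near the shares over all promoters. The median log2 fold change was -0.09, and 2 were higher without HiT 3. Sesn1 led the list upward and the inhibitor Ddit4l downward (-1.63, FDR = 3.76e-04). Outside the lists, Cish, a feedback inhibitor of growth hormone signals, stood at 5.67, 4.03, 3.34 and 3.82 in HiT and 13.5, 42, 33.3 and 48.3 in Fed (log2 fold change -3.02 ± 0.43 (SE), FDR = 5.49e-06). Tfrc, the transferrin receptor that takes up iron, stood at 7, 8.24, 9.48 and 6.79 in HiT and 57.1, 46.4, 54 and 63 in Fed (log2 fold change -2.81 ± 0.23 (SE), FDR = 2.89e-09). Neither overlapped, and both were named after their values had been seen.

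Stress genes rose in part. Of the heat shock and chaperone list, 17 of 32 measured promoters were called higher and 2 lower, with a median log2 fold change of 0.21, which was 0.0 with 4 higher and 2 lower without TMM. Those called lower were 0 without HiT 2 or HiT 4 and 1 without Fed 1, Fed 3, Fed 4 or HiT 3. With only the HiT and Fed libraries in the fit, 11 were higher and 0 lower. Hspb1, a small chaperone of the sarcomere, stood at 1029, 885, 690 and 677 normalised CPM in HiT and 173, 158, 179 and 188 in Fed (log2 fold change 2.23 ± 0.15 (SE), FDR = 8.88e-11). Cryab, αB-crystallin, stood at 8985, 10441, 9641 and 7969 in HiT and 4563, 4427, 5164 and 5934 in Fed (log2 fold change 0.88 ± 0.15 (SE), FDR = 5.86e-05), and Hspb8 changed by 0.88 (FDR = 3.86e-07). The inducible Hsp70 genes Hspa1a and Hspa1b, near-identical copies whose tags may be shared, were not called (0.16, FDR = 0.629, and -0.03, FDR = 0.933).

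Of the ATF4 stress list, 7 of 15 measured promoters were called higher and 3 lower, with a median log2 fold change of 0.42, and 10 of its 25 genes had no cluster. Psat1 and Mthfd2, of serine and mitochondrial folate metabolism, rose by 2.06 and 1.69 (FDR = 7.19e-07 and 2e-07). Ddit3, the factor CHOP, fell by 0.95 (FDR = 1.88e-05). Of the antioxidant and heme genes, 11 of 21 measured promoters were called higher and 3 lower, with a median log2 fold change of 0.35, with 1 lower without Fed 1 or HiT 4. Hmox1, which breaks down heme, stood at 49.7, 75.5, 52.9 and 42.5 in HiT and 5.81, 5.64, 5.24 and 5.39 in Fed (log2 fold change 3.32 ± 0.83 (SE), FDR = 0.00221). Nqo1, a quinone reductase, fell by 0.86 (FDR = 7.05e-05).

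Genes tied to temperature split by class. Rbm3, an RNA-binding protein that rises in cooled cells, stood at 36.9, 31.3, 24.4 and 29 normalised CPM in HiT and 28.7, 32.8, 38.5 and 31.6 in Fed and was not called (log2 fold change -0.11 ± 0.11 (SE), FDR = 0.412). Its relative Cirbp stood at 49.3, 47.8, 48.4 and 54.8 in HiT and 64.5, 63.2, 50.9 and 52.1 in Fed (log2 fold change -0.2 ± 0.11 (SE), FDR = 0.127), and was called lower without TMM (-0.42, FDR = 0.0472). In both genes the groups overlapped. Of their list, with its splicing factors and kinases, 3 of 18 measured promoters were called higher (16.7%) and 2 lower (11.1%). Both shares lay under the 23.3% and 20% over all promoters, and the median log2 fold change was -0.05. Leaving out 1 library gave 1 to 3 higher (1 without Fed 3 or HiT 1) and 1 to 4 lower (1 without Fed 1, Fed 2, HiT 2 or HiT 4, and 4 without Fed 3). Of the calcium and heat list, 4 of 19 measured promoters were called higher and 13 lower, with a median log2 fold change of -0.41. Atp2a2, the calcium pump of slow fibres, stood at 1708, 1262, 1618 and 1108 in HiT and 2151, 2245, 2342 and 2074 in Fed (log2 fold change -0.63 ± 0.19 (SE), FDR = 0.00942), and without Fed 2 and Fed 3 the change was -0.57 and not called (FDR = 0.0632). Jph2, which joins the T-tubule to the calcium store, fell by 0.87 (FDR = 6.11e-05).

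Sln, the small inhibitor that makes the calcium pump run without filling the store, was higher, with 294, 241, 318 and 225 normalised CPM in HiT and 96, 107, 166 and 116 in Fed (log2 fold change 1.15 ± 0.27 (SE), FDR = 0.00141). Casq2, which binds calcium inside the store, rose by 0.61 (FDR = 0.00191, and 0.154 without TMM), and Ucp2, a relative of Ucp3, by 1.37 (FDR = 1.60e-04). Of the circadian clock genes, 4 of 20 measured promoters were called higher and 5 lower, with a median log2 fold change of -0.12, shares near the 23.3% and 20% over all promoters, and 2 were higher without Fed 2, HiT 1 or HiT 3 and 1 higher and 6 lower without TMM. Hlf, an output factor of the clock, and Per3 fell by 1.16 and 0.82 (FDR = 1.44e-04 and 0.00415). Per1, which glucocorticoid also switches on, stood at 13.1, 12.6, 20.6 and 9.76 in HiT and 9.22, 6.98, 5.31 and 6.08 in Fed (log2 fold change 1.04 ± 0.26 (SE), FDR = 0.00242). The core genes Nr1d1 and Arntl were not called (0.21, FDR = 0.415, and -0.15, FDR = 0.191).

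Genes of load and injury were higher in HiT. Of the mechanical load and injury list, 17 of 25 measured promoters were called higher and 1 lower, with a median log2 fold change of 0.93, and its summed level spanned 17009 to 21122 normalised CPM in HiT and 8235 to 10462 in Fed. Mybph, a thick filament protein of remodelling muscle, stood at 91.1, 110, 102 and 91.3 in HiT and 12, 4.92, 0.767 and 2.82 in Fed (log2 fold change 4.33 ± 0.7 (SE), FDR = 2.95e-05). Ankrd1, a stretch sensor of the I-band, stood at 605, 665, 550 and 510 in HiT and 47.1, 50.4, 65 and 48.6 in Fed (log2 fold change 3.46 ± 0.2 (SE), FDR = 4.99e-12). The HiT libraries of both lay above all Fed libraries. Mustn1, of regenerating muscle and tendon, and Myog, a factor of myogenic differentiation, rose by 2.73 and 2.13 (FDR = 4.09e-11 and 1.46e-09). Nos1, the nitric oxide synthase of the fibre membrane, fell by 1.01 (FDR = 9.85e-04).

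Of the immediate early genes, 11 of 20 measured promoters were called higher and 0 lower, with a median log2 fold change of 0.55. Junb, Myc and Fos rose by 2.11, 1.96 and 1.69 (FDR = 1.72e-10, 4.29e-06 and 1.87e-04). Atf3, a stress-induced factor of this list, stood at 24.2, 18.3, 36.8 and 15.6 normalised CPM at its upstream promoter in HiT and 0.16, 0.241, 0.092 and 0.71 in Fed (log2 fold change 6.14 ± 0.95 (SE), FDR = 1.71e-05).

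Matrix genes were called higher more often than lower. Of the collagens and matrix list, 19 of 32 measured promoters were called higher and 1 lower, with a median log2 fold change of 0.55, with summed levels of 5341 to 9973 normalised CPM in HiT and 3210 to 5743 in Fed. HiT 3 had the lowest sum of the HiT group, below the highest of Fed. Tnc, tenascin C, a matrix protein of loaded and injured muscle, stood at 142, 130, 62.3 and 131 in HiT and 2.88, 8.81, 10.3 and 4.33 in Fed (log2 fold change 4.13 ± 0.34 (SE), FDR = 3.43e-09). Lox, which cross-links collagen, stood at 232, 211, 106 and 213 in HiT and 26.3, 39.3, 25.4 and 30.1 in Fed (log2 fold change 2.65 ± 0.25 (SE), FDR = 1.57e-08). In both genes HiT 3 was the lowest of its group and still above every Fed library. Timp1, an inhibitor of matrix proteases, and Postn, periostin, rose by 2.54 and 2.17 (FDR = 1.75e-06 and 4.74e-07). Col3a1, type III collagen, rose by 1.33 (FDR = 3.64e-04), with another gene start within 500 bp.

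Macrophage markers were higher in HiT. Of 15 measured, 14 were called higher and 0 lower (median log2 fold change 1.87), and 15 higher without Fed 2 and Fed 3. Their summed level spanned 277 to 597 normalised CPM in HiT, 80.4 to 155 in Fed, 89.9 to 135 in Pre and 75.5 to 166 in Dep, and their part in the other changes was not tested. Ccl2, the chemokine that draws monocytes, stood at 21.6, 22.2, 23.5 and 20 in HiT and 0.852, 2.27, 3.19 and 1.44 in Fed (log2 fold change 3.47 ± 0.64 (SE), FDR = 1.21e-04). Cd68, a lysosomal marker of macrophages, stood at 21.2, 23.7, 12.8 and 17.8 in HiT and 2.4, 4.06, 2.33 and 3.97 in Fed (log2 fold change 2.56 ± 0.27 (SE), FDR = 1.16e-07). Tyrobp and C1qb rose by 2.24 and 2.02 (FDR = 1.74e-06 and 1.49e-06), while Csf1r overlapped between the groups (1.08, FDR = 8.42e-04). HiT 3 was the lowest HiT library of Tyrobp, C1qb and Csf1r.

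Markers of other cells were called at smaller shares than those of macrophages. Neutrophil markers were called higher in 1 of 5 (Lcn2, 2.15, FDR = 0.00107), tendon and fibroblast markers in 2 of 12 and Schwann cell markers in 1 of 7, and none of the 3 lists held a promoter called lower. Without Fed 1 or HiT 1 the tendon count was 0 and without HiT 3 it was 5, and the Schwann count was 0 without Fed 1, Fed 4, HiT 2 or HiT 4. The shares called higher in these 3 lists were 20%, 16.7% and 14.3%, beside 23.3% over all promoters. Neutrophil markers summed to 5.08 to 10.6 normalised CPM in HiT and 1.38 to 2.33 in Fed. Endothelial markers fell in 6 of 11 (54.5%, beside 20% over all promoters) and rose in 1 (2 without Fed 3 or HiT 3). They summed to 394 to 473 normalised CPM in HiT and 480 to 527 in Fed. Of the vessel growth factors, 2 of 12 measured promoters were called higher and 6 lower, with a median log2 fold change of -0.41. Vegfa, the main growth factor of vessels, and its receptor Kdr changed by -0.94 and -0.99 (FDR = 1.3e-06 and 1.29e-05).

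Cell division genes were detected at few promoters: of 34 genes 9 had a cluster, and 9 of these were called higher (median log2 fold change 1.89). Ccna2, Birc5 and Cdc20 averaged 0.339, 0.381 and 0.666 normalised CPM in Fed, so such promoters could be detected mainly through the group in which they were high, and the count describes only the detected ones. Cdc20, which starts anaphase, stood at 16, 17.4, 6.52 and 14.4 normalised CPM in HiT and 0.266, 1.48, 0.429 and 0.488 in Fed (log2 fold change 4.33 ± 0.55 (SE), FDR = 1.48e-06). Birc5 and Ccna2, survivin and cyclin A, rose by 4.43 and 4.44 (FDR = 1.81e-05 and 2.78e-04). Their summed level was 89.6 to 160 in HiT and 33.2 to 41.9 in Fed, and HiT 3 was the lowest of HiT for these genes. Of the cytosolic ribosomal proteins, 69 of 75 measured promoters were called higher and 0 lower, with a median log2 fold change of 0.41, and 9 higher and 0 lower were called without TMM (median 0.2). Of the ribosome assembly and translation factors, 18 of 28 measured promoters were called higher and 1 lower, with a median log2 fold change of 0.32 (2 lower without Fed 3), and 3 higher and 1 lower without TMM. Nop58 and Npm1 of the nucleolus rose by 0.88 and 0.85 (FDR = 3.86e-07 and 4.03e-08). The elongation factors moved apart, with Eef1a1 higher (0.6, FDR = 0.00136, and 0.144 without TMM) and Eef1a2, the form of mature muscle, lower (-0.6, FDR = 2.33e-05).

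**Figure D4:**
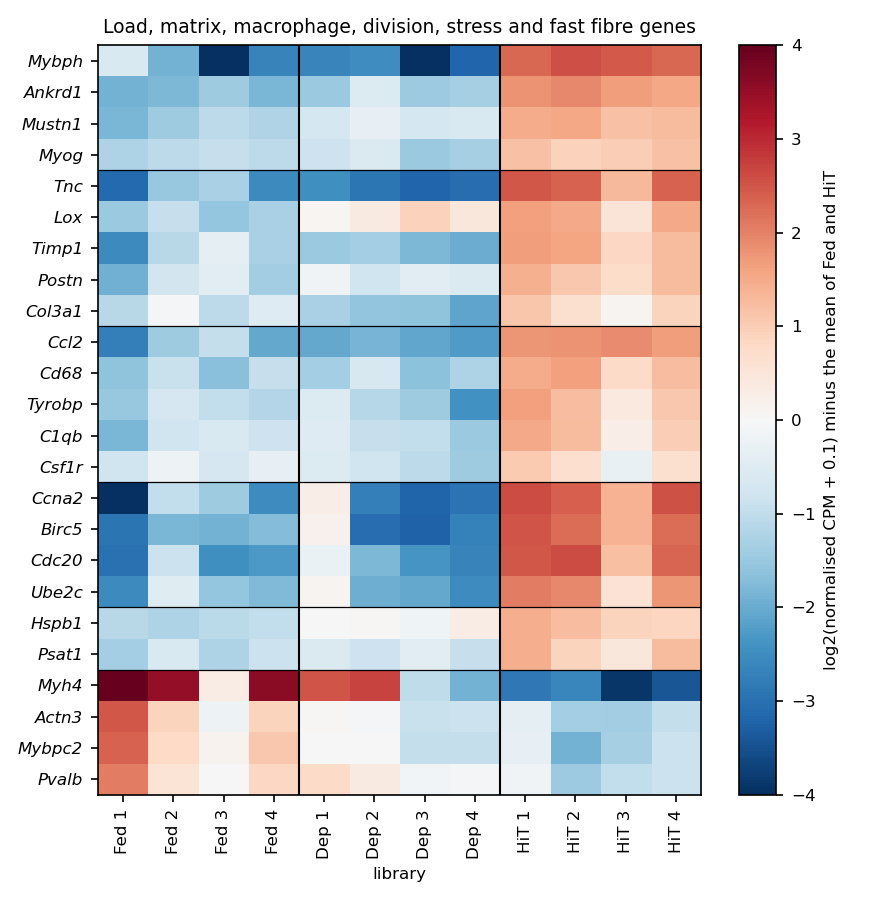
Heat map of 24 genes (rows) in the Fed, Dep and HiT libraries (columns), as log2(normalised CPM + 0.1) minus the mean of the Fed and HiT libraries, with red for higher and blue for lower. The load, matrix, macrophage, division and stress rows are red in the 4 HiT columns, except Csf1r in HiT 3, and Myh4 is red in Fed and blue in HiT.

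Fast fibre genes fell at a few promoters. Of the fast fibre list, 0 of 17 measured promoters were called higher and 6 lower, with a median log2 fold change of -0.15, and 3 were called lower without Fed 1. Myh4, the myosin of the fastest (IIB) fibres, stood at 5.53, 6.51, 2.62 and 3.72 normalised CPM in HiT and 1674, 461, 50.3 and 501 in Fed (log2 fold change -7.18 ± 1.6 (SE), FDR = 8.54e-04). The Fed libraries spread widely, from Fed 3 at 50.3 to Fed 1 at 1674, and the lowest was above the highest HiT library. Pre mice, also with food at the low temperature, spanned 4.66 to 438, and their lowest value lay within the HiT range. Myhas, the antisense RNA of the same locus, which the strand of the tags tells from the sense genes, changed by -6.81 (FDR = 0.00246). Mybpc2, the fast myosin-binding protein, and Actn3, the fast α-actinin, changed by -2.32 (FDR = 0.00282) and -2.29 (FDR = 0.00659) (for Actn3 -1.56, FDR = 0.0569 without Fed 1). The myosins of the other fibre types, Myh7 (slow), Myh2 (IIA) and Myh1 (IIX), were not called (-0.11, 0.25 and 0.01, FDR = 0.545, 0.128 and 0.976). Of the slow fibre list, 1 of 10 measured promoters were called higher (10%) and 4 lower (40%), beside 23.3% and 20% over all promoters. The median log2 fold change was -0.17. The list held 1 higher and 1 lower once Fed 2 and Fed 3 were left out, and 2 lower without Fed 3, Fed 4 or HiT 1. Outside the lists, Lrrc38, a channel subunit, stood at 1.42, 1.31, 1.33 and 1.31 in HiT and 30.2, 15.3, 14.7 and 14.1 in Fed (log2 fold change -3.78 ± 0.4 (SE), FDR = 1.16e-07), and Hr, a nuclear corepressor that thyroid hormone switches on, at 1.08, 1, 0.872 and 1.01 in HiT and 12.3, 9.87, 9.26 and 9.76 in Fed (log2 fold change -3.37 ± 0.22 (SE), FDR = 4.09e-11).

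Several genes changed the promoter they used. Among 988 promoters of 455 genes with 2 or more promoters, 192 (19.4%), in 150 genes, changed against the other promoters of their gene (edgeR promoter-use test, FDR under 0.05). The count was 112 with the quasi-likelihood form of that test and 122 without TMM. In 35 genes promoters of the same gene were called in opposite directions. The 5 genes with the largest difference between promoters were Atf3, Ppargc1a, Acaca, Arpp19 and Slc30a2. The difference in log2 fold change between the promoters was 5.96 for Atf3, 4.65 for Ppargc1a, 4.15 for Acaca and 3.87 for both Arpp19 and Slc30a2.

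Ppargc1a has a proximal promoter and one 13853 bp upstream, which is known to answer to cyclic AMP and exercise. The upstream promoter, printed above, stood at 20, 38.3, 45.8 and 34.8 normalised CPM in HiT and 0.692, 2.58, 3.31 and 5.57 in Fed (log2 fold change 3.43 ± 0.67 (SE), FDR = 2.55e-04). The proximal promoter stood at 19, 22.5, 17.9 and 22.8 in HiT and 54, 39.1, 47.5 and 41.2 in Fed (log2 fold change -1.14 ± 0.16 (SE), FDR = 6.9e-06). Neither overlapped, and the 2 promoters went in opposite directions (promoter-use FDR = 1.86e-05 for the upstream one). The upstream promoter spanned 174 to 257 in Dep, above every HiT library.

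Acaca and Srebf1 of the fat-making genes fell at 1 promoter more than at another. The upstream promoter of Acaca, acetyl-CoA carboxylase 1, 6533 bp before the main one, stood at 0.227, 0.345, 0.265 and 0.252 normalised CPM in HiT and 6.39, 11, 5.09 and 17.3 in Fed (log2 fold change -5.18 ± 0.73 (SE), FDR = 5.11e-06). The main promoter stood at 10, 10.2, 9.89 and 9.31 in HiT and 18.6, 22.5, 13.8 and 25.2 in Fed (log2 fold change -1.02 ± 0.17 (SE), FDR = 3.15e-05). Srebf1, the factor SREBP-1, showed its fall at the promoter 10184 bp downstream, with 2.83, 2.93, 2.39 and 2.36 in HiT and 12.9, 15.2, 10.4 and 16 in Fed (log2 fold change -2.37 ± 0.25 (SE), FDR = 1.15e-07). Its upstream promoter overlapped between the groups (-0.3, FDR = 0.0364), a call that was lost when any of 5 single libraries was left out.

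Atf3 rose at its upstream promoter. The other, 34686 bp downstream, stood at 12.8, 7.07, 10.7 and 9.31 in HiT and 6.13, 8.36, 6.35 and 11.7 in Fed and was not called (log2 fold change 0.28 ± 0.28 (SE), FDR = 0.428). Arpp19, an inhibitor of protein phosphatase 2A, gained tags at a promoter 14419 bp downstream, with 10.7, 13.2, 13.1 and 11.9 normalised CPM in HiT and 0.906, 0.55, 0.521 and 1.26 in Fed (log2 fold change 3.88 ± 0.4 (SE), FDR = 6.67e-08). Its main promoter, at 87.3, 87.1, 95.8 and 82.4 in HiT and 79.5, 84.5, 99.7 and 83.2 in Fed, was not called (0.02, FDR = 0.839). Slc30a2, a zinc exporter, rose at the first of its promoters (1.58, FDR = 0.0131) and fell at the one 812 bp downstream (-2.29, FDR = 4.22e-07). Tsc22d1, a leucine zipper factor with starts 89746 bp apart, fell at the upstream (-1.32, FDR = 2.23e-06) and rose at the downstream promoter (1.05, FDR = 3.31e-04). All 4 HiT libraries stood apart from all Fed libraries at both of its starts.

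**Figure D5:**
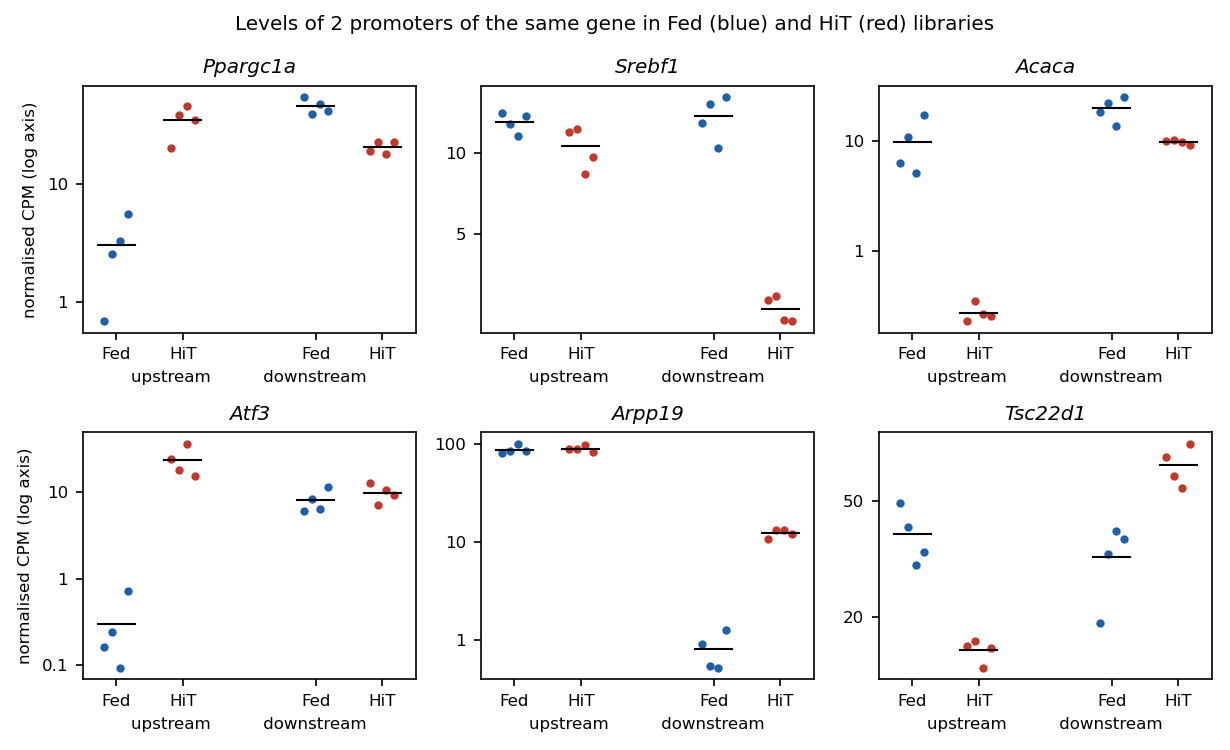
Normalised CPM (log axes) of the upstream and downstream promoters of 6 genes in the 4 Fed (blue) and 4 HiT (red) libraries, with the mean as a line. Ppargc1a and Tsc22d1 change in opposite directions at their starts, and Atf3, Arpp19, Acaca and Srebf1 change mainly at 1 of them.

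The Dep mice, fasted at the low temperature, allow each change to be set beside HiT against Dep (2861 of 10776 called, 26.5%), in which diet was shared, and Dep against Fed (4160, 38.6%), in which the temperature was shared. Dep mice had also been touched, and the 2 contrasts share the Dep libraries. By the paper's account, the touching began some hours after mice usually start to enter torpor. Whether Dep mice had been torpid before it was not tested. For Pdk4 the log2 fold changes were HiT minus Dep -0.16 (FDR = 0.72) and Dep minus Fed 3.53 (FDR = 5.5e-08). For Fasn they were HiT minus Dep -0.77 (FDR = 0.356) and Dep minus Fed -3.52 (FDR = 3.88e-05), and for Ppp1r3c HiT minus Dep -1.31 (FDR = 2.02e-05) and Dep minus Fed -0.64 (FDR = 0.0114). Dep lay nearer HiT than Fed in Pdk4 and Fasn, and nearer Fed in Ppp1r3c. For the upstream promoter of Ppargc1a they were HiT minus Dep -2.61 (FDR = 0.00247) and Dep minus Fed 6.04 (FDR = 1.27e-06), so Dep lay above both. For Gabarapl1 they were HiT minus Dep -0.86 (FDR = 0.00432) and Dep minus Fed 2.61 (FDR = 5.5e-08).

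Mybph, Tnc and Ankrd1 were ordered otherwise. For Mybph the values were HiT minus Dep 5.54 (FDR = 6.48e-06) and Dep minus Fed -1.22 (FDR = 0.182), and for Tnc HiT minus Dep 5.08 (FDR = 6.05e-10) and Dep minus Fed -0.96 (FDR = 0.0291). Ankrd1 gave HiT minus Dep 2.89 (FDR = 1.82e-10) and Dep minus Fed 0.57 (FDR = 0.0155). For these 3 genes the HiT libraries lay above those of Dep. The load genes did not share 1 order, since Ankrd2, a relative of Ankrd1 named here after its values were seen, gave HiT minus Dep -0.37 and Dep minus Fed 1.5. The summed level of the load list in Dep, 12941 to 18508 normalised CPM, lay above every Fed library and overlapped HiT. The macrophage gene Cd68 gave HiT minus Dep 2.51 (FDR = 3.32e-07) and Dep minus Fed 0.05 (FDR = 0.903), and Cdc20 HiT minus Dep 3.8 (FDR = 9.89e-06) and Dep minus Fed 0.53 (FDR = 0.437). Hspb1 gave HiT minus Dep 1.08 (FDR = 5.37e-06) and Dep minus Fed 1.15 (FDR = 2.11e-06), with Dep between. Myh4 gave HiT minus Dep -4.83 (FDR = 0.0145) and Dep minus Fed -2.35 (FDR = 0.14), with Dep libraries from 11 to 265 normalised CPM. Among the temperature genes, Rbm3 gave HiT minus Dep -0.27 (FDR = 0.068) and Dep minus Fed 0.16 (FDR = 0.259), and Sln HiT minus Dep 1.23 (FDR = 0.00134) and Dep minus Fed -0.08 (FDR = 0.831).

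As a check that does not share the spread of other groups, 12 genes were tested singly on log2(TPM + 0.1). They were chosen for their roles with earlier results of these data known, so the choice was not independent of the data. The test was a two-sided exact permutation test over the 70 divisions of 8 libraries, which cannot give a p below 0.0286. That value was reached by 7 of 12: Pdk4, Ucp3, Fasn, Ppargc1a (proximal promoter), Mt2, Atf3 and Hmox1. Sln gave an exact permutation p of 0.0571, Per1 0.114, Fbxo32 0.229, Rbm3 0.314 and Nr1d1 1.0. Sln, Per1 and Fbxo32 were called by edgeR and not by this test, whose values are scaled to library totals.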

How the data were processed

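Soleus RNA of 38 mice was read by nAnT-iCAGE, and 28 libraries of the first run (Pre 4, Mid 8, Post 4, HiT 4, Fed 4, Dep 4) were fitted. The authors mapped tags to the mouse genome (BWA, HISAT2 and the builds mm10 and GRCm38 are named in the submitters' processing notes), clustered start sites and deposited raw tag counts per cluster, used here, and TPM values, which the authors scaled per library and which served the exact permutation tests on log2(TPM + 0.1). A cluster was given the gene whose annotated 5′ end was nearest within 500 bp on its strand (9615 of 10819 clusters).

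Counts were fitted in edgeR 4.0.16 (R 4.3.3) with TMM scaling, group as the only term and the quasi-likelihood F test for HiT minus Fed, with Benjamini-Hochberg adjustment over all clusters. Promoter use was tested with edgeR's diffSpliceDGE in genes with 2 or more clusters of at least 1 CPM. Lists took the highest cluster of each gene and were described without a set test. The text names the 10 largest changes without overlap and the 5 highest called genes in each direction, up to 4 called members of each of 37 lists with members needed to describe it, the 12 genes tested singly and the 5 largest promoter differences. Tfrc, Cish, Srebf1 and Tsc22d1 promoters and the hepatocyte list were chosen after their values were seen, and the members and lists were chosen with earlier results of these data known. Alternatives were other scalings, tests (DESeq2 1.42.0), filters and sample sets. On simulated counts of 10773 clusters for HiT against Fed, 87.5% of 200 promoters changed by 1 on the log2 scale were recovered, with 5 false calls. The changed promoters had a mean of at least 1 CPM, and the simulated spread followed the trend with level. Recovery of lower promoters, or of promoters more variable than that trend, was not simulated. Depth was 18257657 to 39176649 tags in the HiT and Fed libraries. Compared within HiT and within Fed only, no 2 libraries agreed within counting noise.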

Additional observations from a re-analysis of the deposited data

Results flagged for a closer look

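In 296 groups of 4 libraries, 15 had a highest or lowest library that Dixon's test set apart from the rest of its group, and chance gives about 1 in 20. HiT 3 was set apart in 6 of the 9 HiT cases, with the lowest values of Tnc at 62.3, Lox at 106, Hist1h3c at 26.6 and Jph2, Slc25a4 and the main promoter of Pcx also apart at 145, 5716 and 14.3 normalised CPM. The other HiT cases were Phkg1 at 19.3 in HiT 2, Prkag3 at 1.46 in HiT 4 and Lrrc38 at 1.42 in HiT 1. Fed 1 was apart for Vldlr at 147, Phkg1 at 71.2 and Lrrc38 at 30.2. Fed 2 was apart for Plin2 at 16, and Fed 3 for Gpam at 154 and Retreg1 at 185.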

How the results depend on the processing

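With library totals in place of TMM, 701 promoters were higher, and 2260 lower. The promoter-use count was 122 without TMM and 112 with edgeR's quasi-likelihood form, added after seeing the data, against 192. Leaving out 1 library gave 2155 to 2455 promoters higher, 1738 to 2112 lower and 158 to 174 changed in promoter use. The likelihood ratio test (not run for promoter use, which uses that fit), DESeq2, upper-quartile scaling, an expression filter, the 8 libraries alone and the added settings (library totals over clusters with a gene, Fed 2 and Fed 3 left out) gave 1931 to 2552 higher and 1726 to 2603 lower. Replicate numbers did not pair the mice (correlations of same-numbered libraries -0.431 to 0.03, with 0 of 4 HiT libraries closest to their own number), and the replicate block on the 8 libraries gave 1577 higher and 1654 lower. Of 135 called promoters described here, 126 were called in every leave-one-out fit and 120 without TMM, and none was reversed under the settings above. Depth and group size were not varied.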

Other observations

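Replication-dependent histone genes were not among the lists and were grouped after their values were seen. Of 58 genes named Hist with a promoter cluster, 55 were higher in HiT and 0 lower, beside 23.3% and 20% over all promoters. The median log2 fold change was 2.93. Promoters as low in Fed as Hist1h3g, with a mean of 0.922, could be detected mainly through the group in which they were high. The count describes only the detected ones. Hist1h3g stood at 25.3, 28.9, 8.34 and 22.5 normalised CPM in HiT and 0.266, 1.07, 1.53 and 0.821 in Fed. These genes are near-identical copies, so tags may be assigned among them with error.

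Start clusters without an annotated 5′ end lay inside 2 strongly changed genes. Within Myh4, 11 such clusters on its strand were all lower in HiT. Of these, 1 held 0 tags in HiT and was at least 138-fold lower against a floor of 3 tags over the group, and the other 10 changed by -7.34 to -1.29 on the log2 scale. Within Pdk4, 6 of 7 were higher, with changes of 1.2 to 3.98. Retreg1, a receptor for autophagy of the endoplasmic reticulum, rose at its main cluster, with 676, 617, 695 and 597 normalised CPM in HiT and 133, 136, 185 and 138 in Fed (log2 fold change 2.12 ± 0.23 (SE), FDR = 1.11e-07).

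Arg1, an enzyme of both macrophages and liver, was the macrophage marker not called (log2 fold change 1.47 ± 1.15 (SE), FDR = 0.312). It stood at 15.9, 9.13, 5 and 7.75 normalised CPM in HiT and 0.16, 8.84, 4.51 and 0.111 in Fed, where the 2 libraries with hepatocyte genes were the high ones, and without them its change was 6.15 (FDR = 0.0111).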
